A study of Arabidopsis thaliana and Boechera depauperata with 12 samples.

Results

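The response of *Boechera depauperata* to acquired heat stress (A/HS) is described from the 2 A/HS libraries, EW13 and EW14, against the 2 control libraries, EW9 and EW10, which makes 4 of the 12 RNA-seq libraries of the series. *B. depauperata* is a polyploid, thermotolerant relative of *A. thaliana*. Control plants stayed at 22 °C. A/HS plants received 1 h at 38 °C, recovered for 1 h at 22 °C and were then held for 3 h at 43 °C, and the A/HS libraries therefore carry both heat exposures and the recovery between them. Libraries EW11 and EW12 come from basal heat stress (B/HS, 3 h at 38 °C without pretreatment) and enter the same fit. No strain or plant age is given in the labels, and the libraries of a condition are 2 independently grown replicates.

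Plants that meet a mild heat first survive a later, otherwise lethal heat better. In *A. thaliana* heat shock factors switch on chaperones, which hold or refold damaged proteins, while photosynthesis, growth and pre-mRNA splicing are also affected by heat. The comparison asks which transcripts stood apart from control plants after this acquired regime.

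The counts covered 27416 genes of *B. stricta*, the relative whose gene models were used, and 17839 passed the filter on low counts. Library totals ran from 3869082 counts (EW14) to 7666352 counts (EW10), so that 3 counts correspond to between 0.298 and 1.09 CPM (counts scaled to library size with TMM factors). EW14 stood apart from the other libraries. A single gene took 16.2% of its counts against between 6.58% and 9.95% in the other *B. depauperata* libraries, and the correlation of log2 CPM between EW13 and EW14 was 0.89 against 0.95 between the 2 control libraries. In bulk RNA, fewer cells of a type and less RNA per cell cannot be told apart.

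Gene names were available only for 1671 *B. stricta* genes that pair one-to-one with an *A. thaliana* identifier in a list of genes with splicing events, and 1628 of these were tested. The named genes are therefore not a random sample of the genome. A gene was called when its adjusted *P*-value was under 0.05 in edgeR's quasi-likelihood test over all 17839 genes, and DE when it also changed at least 4-fold. All adjusted *P*-values below come from that fit unless another is named. Differences are log2 fold changes of A/HS minus control.

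The labels give the tissue as root. Genes of green tissue were nevertheless abundant in every library. *RCA*, the activase of Rubisco, had 6248 and 4329 CPM in the control libraries, and *CA1*, a chloroplast carbonic anhydrase, had 4304 and 3278 CPM. The phosphate transporter gene *PHT1;4*, a root marker, had 20.3 and 63.2 CPM in control and 18.4 and 65.7 CPM in A/HS libraries, and *PHO1*, which loads phosphate into the xylem, had 25.1 and 34.1 CPM against 14.2 and 34.5 CPM. The root aquaporin gene *TIP2;2* reached at most 6.9 CPM. None of these 3 root markers was called, and no tissue is assumed below. The 21 genes of the photosynthesis list took 2.49% and 2.16% of the counts of EW9 and EW10 and 1.09% and 0.68% of those of EW13 and EW14. These and the other shares of counts below are of raw library totals. They leave out the TMM factors behind the CPM, which ran from 0.714 (EW14) to 1.32 (EW10). Whether a different share of green tissue contributed to the lower share of the photosynthesis list was not tested.

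After A/HS, 712 genes were DE and higher (3.99% of the genes tested) and 485 were DE and lower (2.72%), 1197 in all (6.71%). Without the 4-fold threshold 1806 genes were higher (10.1%) and 1306 lower (7.32%), and the median log2 fold change over all genes tested was 0.00. The 712 genes that rose held 2.03% and 3.37% of the counts of the control libraries and 18.1% and 22.1% of those of the A/HS libraries. The 485 genes that fell went from 3.16% and 2.87% to 0.336% and 0.261%. These shares describe genes that were chosen by the same comparison.

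More of the rises than of the falls were large or reached a high mean CPM. Of the 712 genes, 149 rose 16-fold or more, 175 between 8- and 16-fold and 388 between 4- and 8-fold. Among the 485 that fell, 61 fell 16-fold or more and 326 between 4- and 8-fold. A mean of at least 50 CPM was reached by 286 of the genes that rose and by 48 of those that fell. Of the 30 genes with the highest mean CPM over the control and A/HS libraries, 14 were DE and all 14 rose. They went from between 87.4 and 801 CPM in the control libraries to between 2022 and 14805 CPM in the A/HS libraries. Both means include the A/HS values, so a rise itself helps a gene to pass, and these counts are no independent support. None of the 14 has an *A. thaliana* name here.

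Not every one of these genes behaved alike in the 2 A/HS libraries. EW14 was more than 3 times as high as EW13 for 101 of the 712 genes that rose, and EW13 more than 3 times as high as EW14 for 6. Among the genes that fell, 17 had no count in either A/HS library, which makes their fold a lower bound. Without EW14 the number of DE genes was 968, of which 779 were among the 1197. Without control library EW9 it was 500, of which 474 were among the 1197. By adjusted *P*-value alone, 3112 genes (17.4%) were called, and 2183 when only the 4 libraries compared were fitted. A smaller fit therefore called fewer genes even with both control and both A/HS libraries kept. The 485 genes DE and lower became 182 without EW9 and 299 without EW10.

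**Figure D1:**
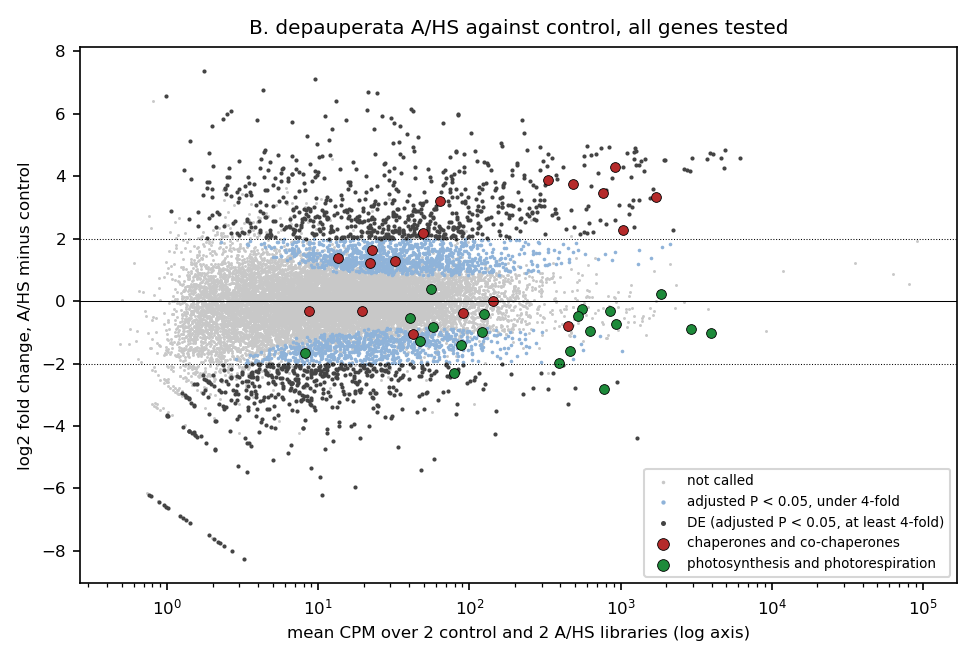
Log2 fold change of A/HS minus control against mean CPM over the control and A/HS libraries (log axis) for the 17839 genes tested. Black points are DE (712 higher, 485 lower), red points the chaperone list and green points the photosynthesis list. Most chaperones lie above 0 and 18 of 20 photosynthesis genes below it, and the diagonal line of points at the lower left holds genes with no count in either A/HS library.

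The unnamed genes with the largest changes at a mean of at least 50 CPM are given by their identifier. Bostr.7128s0087 had 2.44 and 2.68 CPM in control and 45.2 and 286 CPM in A/HS libraries (log2 fold change 5.99, standard error 0.87, adjusted *P* = 0.00531). Bostr.29044s0003 went from 1.41 and 3.67 CPM to 27.6 and 301 CPM (log2 fold change 5.96, standard error 1.12, adjusted *P* = 0.0115). The A/HS libraries lay above the control libraries for both genes, which the choice of these genes required, but EW14 was several times higher than EW13. Without EW14 the log2 fold changes were 4.14 and 3.41, and without EW9 Bostr.29044s0003 was not called (adjusted *P* = 0.0757). In the other direction, Bostr.3148s0211 fell from 88.5 and 138 CPM to 2.93 and 3.99 CPM (log2 fold change −5.06, standard error 0.41, adjusted *P* = 0.0029), with both A/HS libraries near each other. Bostr.7128s0081 fell from 3182 and 1708 CPM to 54.8 and 182 CPM (log2 fold change −4.37, standard error 0.64, adjusted *P* = 0.00544).

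Most of the chaperones and their partners rose. Of the 19 members, 18 were tested, of which 11 were called higher, 8 of them DE, and none lower. Among the paired genes tested, 9.77% were called higher and 3.87% were DE and higher. This list and the others below were chosen with earlier results of these data known. A share above that of the paired genes is therefore no independent support. The median log2 fold change of the list was 1.52, against 0.00 over all genes tested and −0.03 over the paired genes. Both A/HS libraries lay above both control libraries for 12 of the 18, against 29.9% of all genes tested. The list's share of the counts was 0.232% and 0.271% in the control libraries and 0.91% and 0.806% in the A/HS libraries.

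The largest of these rises belonged to *FES1A* (Bostr.22252s0132, AT3G09350), a partner of HSP70 that *A. thaliana* needs for acquired thermotolerance. It had 59.1 and 119.5 CPM in EW9 and EW10 and 1484 and 2005 CPM in EW13 and EW14, and rose 19.5-fold (log2 fold change 4.29, standard error 0.65, adjusted *P* = 0.00572). Genes of other chaperone partners rose as well. *AHSA1-like* (Bostr.26833s0438, AT5G58110), annotated as an activator of a chaperone's ATPase, went from 45.3 and 88 CPM to 875 and 922 CPM (log2 fold change 3.75, standard error 0.43, adjusted *P* = 0.00305). *ROF1* (Bostr.19424s0107, AT3G25230), a prolyl isomerase that binds HSP90, went from 259.6 and 363 CPM to 3064 and 3175 CPM (log2 fold change 3.33, standard error 0.41, adjusted *P* = 0.00334). For all 3 genes the groups were far apart, and control library EW10 was higher than EW9.

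Organelle chaperonins differed in their call. *HSP60* (Bostr.19424s0205, AT3G23990), the mitochondrial chaperonin, rose from 108 and 143 CPM to 1194 and 1604 CPM (log2 fold change 3.48, standard error 0.45, adjusted *P* = 0.00372). The chloroplast chaperonin subunits were not called. *CPN60B1* had 679.6 and 464 CPM in control and 484 and 169 CPM in A/HS libraries, which overlap, and *CPN60B4* had 59.3 and 56.5 CPM against 38.1 and 16.3 CPM (adjusted *P* = 0.0841). Without EW13 both were called lower (adjusted *P* = 0.0291 and 0.0142). *HSP90.7* (Bostr.7867s0225, AT4G24190), the HSP90 of the endoplasmic reticulum (ER), rose from 294 and 426 CPM to 1348 and 2114 CPM (log2 fold change 2.27, standard error 0.39, adjusted *P* = 0.009).

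The DnaJ proteins, which hand substrates to HSP70, were split. *ERDJ3A* (Bostr.22252s0175, AT3G08970), the DnaJ protein of the ER lumen, rose from 30.9 and 52.9 CPM to 516 and 729 CPM (log2 fold change 3.89, standard error 0.49, adjusted *P* = 0.00352). The DnaJ genes paired with AT3G14200 and AT1G72416 rose 9.14-fold and 4.51-fold (adjusted *P* = 0.00647 and 0.00437). The first had 12.5 and 12.6 CPM in control and 99.2 and 131 CPM in A/HS libraries. *DJA4* passed the adjusted *P*-value without reaching 4-fold (log2 fold change 1.65, adjusted *P* = 0.034), a call that held in 6 of 12 alternatives and not without EW13 (log2 fold change 0.82, adjusted *P* = 0.181). The genes paired with AT1G76700 and AT4G37480 were not called, each with a log2 fold change of −0.31.

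*CCT3*, a subunit of the cytosolic chaperonin, and *CHIP*, a ubiquitin ligase that binds HSP70, rose by log2 fold changes of 1.39 and 1.29 (adjusted *P* = 0.0308 and 0.0408). Both calls were fragile, and held in 6 of 12 and 5 of 12 alternative settings. The remaining tested members were not called. They were the prefoldin gene *PFD2* at 11.6 and 15 CPM in control and 30.5 and 31.2 CPM in A/HS libraries (adjusted *P* = 0.0705), the HSP90 partner gene *P23-1* at 134 and 149.7 CPM in control and 90.2 and 195 CPM in A/HS libraries, and *ACD32.1*, an alpha-crystallin domain gene, with a log2 fold change of −0.39. Without EW9, 6 of the 11 calls were made. *ROC1* had too few counts to test, with 3 and 12 counts in EW9 and EW10 and 1 and 0 in EW13 and EW14.

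The 2 heat shock factors among the pairs gave 1 call, higher and at the threshold, where 9.77% of the paired genes were called higher. *HSFA4A* had 7.71 and 12.3 CPM in control and 18.6 and 26.5 CPM in A/HS libraries. Its adjusted *P*-value of 0.0497 stayed under 0.05 in 1 of 12 alternative settings. *HSFA1A*, a master activator of the heat response in *A. thaliana*, had 6.56 and 8.43 CPM against 7.11 and 13.8 CPM, with overlapping groups and a log2 fold change of 0.44 (adjusted *P* = 0.459).

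The ER folding and quality control list, which shares *HSP90.7* and *ERDJ3A* with the chaperones, had 7 of 10 members called higher and none lower, with a median log2 fold change of 1.74, against 9.77% of the paired genes called higher. *CRT1B* (Bostr.10846s0001, AT1G09210), a calreticulin that binds calcium and sugar chains of folding proteins, had 225 and 244 CPM in control and 1218 and 956 CPM in A/HS libraries and was DE (log2 fold change 2.21, standard error 0.33, adjusted *P* = 0.00557). The protein disulfide isomerases rose by less than 4-fold. *PDIL1-2* went from 93.5 and 151 CPM to 572 and 329 CPM, *PDIL1-3* from 35.7 and 51.4 to 134 and 117 CPM and *PDIL1-5* from 9 and 11.7 to 38.7 and 23.6 CPM (adjusted *P* = 0.0139, 0.0111 and 0.0174). *OS9*, a lectin that passes misfolded proteins on for degradation, rose from 10 and 12 CPM to 56.1 and 31.2 CPM (log2 fold change 1.99, standard error 0.37, adjusted *P* = 0.0111). The glucosidase subunit gene *PSL4* and the ubiquitin ligase genes *HRD1A* and *SUD1* were not called, with log2 fold changes of 0.59, 0.25 and 0.73. Without control library EW9 only 1 of the 7 calls was made, that of *ERDJ3A*.

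**Figure D2:**
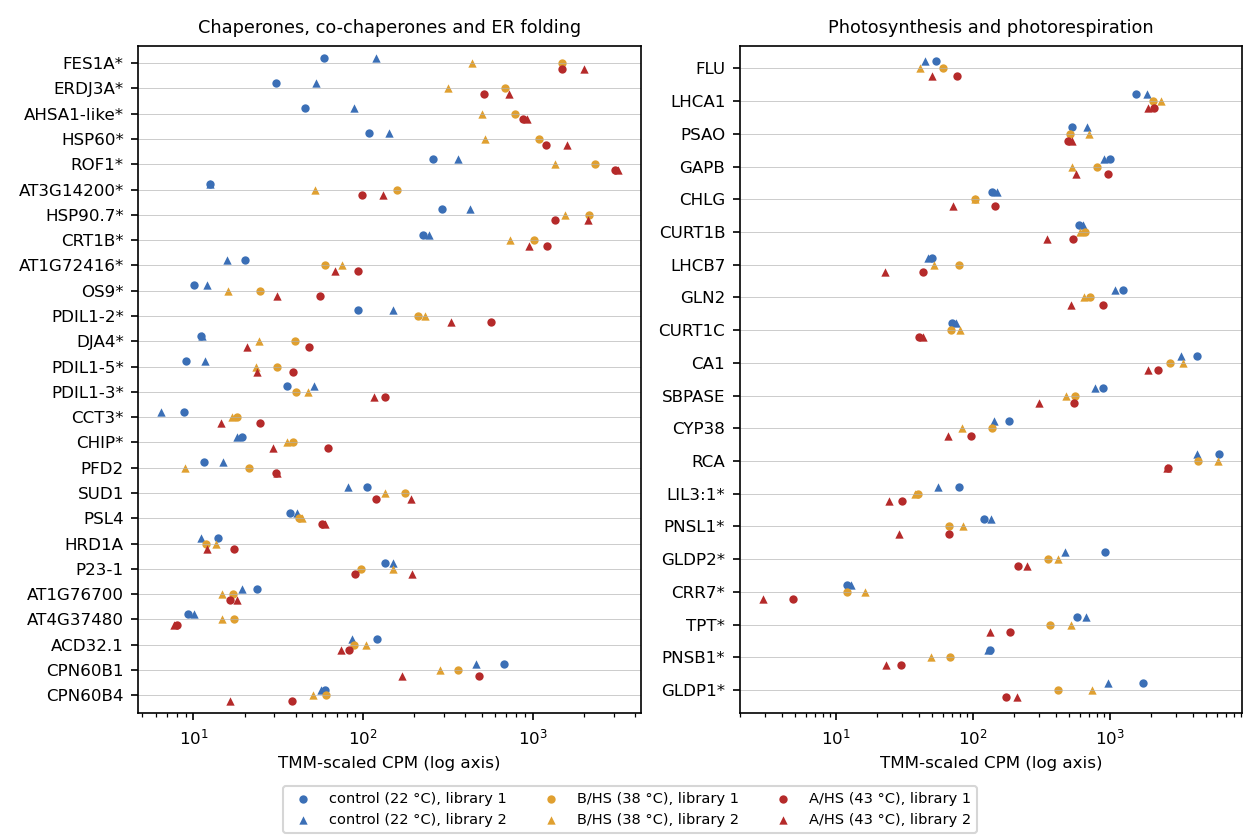
TMM-scaled CPM (log axis) of every tested member of the chaperone and ER lists (left) and of the photosynthesis list (right) in each of the 6 *B. depauperata* libraries, ordered by log2 fold change of A/HS minus control. Circles and triangles are the 2 libraries of a condition, and an asterisk marks an adjusted *P*-value under 0.05 for A/HS against control. From *FES1A* to *CHIP* both A/HS libraries sit to the right of both control libraries, and from *LIL3:1* to *GLDP1* both sit to the left.

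Photosynthesis and photorespiration had the lowest median of the lists. Of 21 members, 20 were tested, 7 were called lower, 2 of them DE, and none higher, against 7.49% of the paired genes called lower. The median log2 fold change was −0.92. Both A/HS libraries lay below both control libraries for 16 of the 20, against 31.6% of all genes tested. Without EW9, and likewise without EW14, 3 of the 7 calls were made. *CRR6* had no count in any library, which allows up to 1.09 CPM in EW14.

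The glycine decarboxylase genes, whose product releases carbon dioxide in photorespiration, fell. *GLDP1* (Bostr.7867s1152, AT4G33010) went from 1743 and 967 CPM in EW9 and EW10 to 175 and 208 CPM in EW13 and EW14, 7.07-fold lower (log2 fold change −2.82, standard error 0.43, adjusted *P* = 0.00586). *GLDP2* went from 921 and 470.4 CPM to 214 and 246 CPM (log2 fold change −1.60, standard error 0.37, adjusted *P* = 0.0236). The A/HS values of each gene were close together and below both control libraries, of which EW9 was the higher for both genes. Reads of these paralogs may have been shared between them, since the treatment of multiply mapped reads is not given in the sources used here.

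Subunits and an assembly factor of the chloroplast NDH complex, which carries out cyclic electron flow around photosystem I, fell too. *PNSB1* (Bostr.7128s0217, AT1G15980) had 134 and 129 CPM in control and 29.9 and 23.2 CPM in A/HS libraries (log2 fold change −2.30, standard error 0.29, adjusted *P* = 0.0035). *PNSL1* and *CRR7* had log2 fold changes of −1.40 and −1.65 (adjusted *P* = 0.0417 and 0.0227), and the call of *PNSL1* held in 6 of 12 alternatives. *TPT*, the carrier that exports triose phosphate from the chloroplast, went from 573 and 669 CPM to 185 and 132 CPM (log2 fold change −1.97, standard error 0.33, adjusted *P* = 0.00794). *LIL3:1*, which acts in chlorophyll synthesis, had a log2 fold change of −1.29 (adjusted *P* = 0.0197).

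Several abundant members were not called. *RCA* had 2625 and 2618 CPM and *CA1* 2238 and 1886 CPM in A/HS libraries, each below both control libraries (log2 fold changes −1.01 and −0.88, adjusted *P* = 0.101 and 0.117). DESeq2 called both, with adjusted *P*-values of 0.00901 and 0.0162, and their values across the alternatives reached 0.388 and 0.406. The light-harvesting gene *LHCA1* had 1548 and 1869.9 CPM in control and 2077 and 1887 CPM in A/HS libraries, and the photosystem I gene *PSAO* 529 and 679 CPM against 489.8 and 524 CPM, with log2 fold changes of 0.21 and −0.25. The Calvin cycle gene *GAPB* overlapped between groups (log2 fold change −0.32).

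Splicing factors moved in a few members only. Of 18 tested, 3 rose, 2 of them DE, none was called lower, and the median log2 fold change was 0.24. Among the paired genes 9.77% were called higher. The 3 encode serine/arginine-rich (SR) or SR-like proteins, which take part in choosing splice sites. Other SR and SR-like members were not called, with log2 fold changes of 0.00 for *SR45*, 0.03 for *RS2Z32* and 0.66 for *RSZ22A*. *SR45A* (Bostr.25219s0220, AT1G07350) had 25.6 and 36.1 CPM in control and 577 and 664 CPM in A/HS libraries and rose 20.1-fold (log2 fold change 4.33, standard error 0.35, adjusted *P* = 0.0029). *SR30* (Bostr.25219s0035, AT1G09140) went from 55.3 and 72.2 CPM to 378 and 539 CPM (log2 fold change 2.84, standard error 0.40, adjusted *P* = 0.00484). *RS31* went from 27.6 and 26.4 CPM to 48.5 and 49.8 CPM (log2 fold change 0.86, standard error 0.24, adjusted *P* = 0.0425), a call that held in 4 of 12 alternatives.

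No other splicing factor was called. The U2AF subunit genes *U2AF35A* and *U2AF65A* had log2 fold changes of 0.84 and −0.60, and the polypyrimidine tract-binding genes *PTB1* and *PTB2* −0.35 and 0.27. *SF3A1*, *PRP40A* and *SMD2*, which act in the U2, U1 and core small nuclear particles, had −0.06, 0.37 and 0.27. In *SF3A1*, *SR45*, *RS2Z32* and *PRP40A*, for example, the A/HS libraries overlapped the control libraries.

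Clock genes gave 3 calls out of 10, all DE and higher, against 3.87% of the paired genes DE and higher, while the median of the list was −0.06. The *REVEILLE* genes encode MYB-like factors and the LNK proteins are their coactivators. *RVE7* (Bostr.7128s0434, AT1G18330) rose from 19.4 and 16.7 CPM to 186 and 138 CPM (log2 fold change 3.16, standard error 0.42, adjusted *P* = 0.00424), *LNK1* (Bostr.0568s0387, AT5G64170) from 39.6 and 54.8 CPM to 305 and 332 CPM (log2 fold change 2.75, standard error 0.39, adjusted *P* = 0.00477) and *RVE5* (Bostr.10064s0009, AT4G01280) from 10.4 and 10.4 CPM to 40 and 47.6 CPM (log2 fold change 2.07, standard error 0.30, adjusted *P* = 0.00531). The groups did not overlap for any of the 3, but this was so for all 712 genes DE and higher and adds nothing to the calls. Each was called in all 6 alternatives that kept both control and both A/HS libraries in the fit. The related *LNK2* and *RVE8* were not called and had lower values, with 179 and 141 CPM in control and 129 and 49 CPM in A/HS libraries for *LNK2* (log2 fold change −0.84, adjusted *P* = 0.199). The pseudo-response regulator genes *PRR7* and *PRR3* had log2 fold changes of −0.43 and −0.17. The hour of sampling is not given in the sources used here, and the time of day cannot be told apart from the treatment.

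Light signalling gave 3 calls out of 9, all lower and none DE, with a median of −0.74, against 7.49% of the paired genes called lower. *PIF4* (Bostr.25993s0478, AT2G43010), a bHLH factor that promotes growth in warm conditions in *A. thaliana*, had 15.7 and 20.6 CPM in control and 8.16 and 8.72 CPM in A/HS libraries (log2 fold change −1.11, standard error 0.30, adjusted *P* = 0.0377). *PIF8* and *COP1*, the latter a ubiquitin ligase acting in darkness, had log2 fold changes of −1.25 and −0.91 (adjusted *P* = 0.0411 and 0.0454). The 3 calls held in 4 of 12, 6 of 12 and 3 of 12 alternatives, and none held without any 1 of EW9, EW11, EW12, EW13 and EW14 (without EW14, adjusted *P* = 0.0787, 0.105 and 0.0906).

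Among abscisic acid and salt signalling genes, 3 of 13 were DE and higher, none was called lower and the median was 0.43. Of the paired genes 3.87% were DE and higher. *PYL9* (Bostr.13158s0170, AT1G01360), an abscisic acid receptor, rose from 18.3 and 31.4 CPM to 226 and 183 CPM (log2 fold change 3.04, standard error 0.45, adjusted *P* = 0.00564). *SNRK2.3* (Bostr.0568s0112, AT5G66880), a kinase that acts downstream of such receptors, rose from 47.8 and 71.2 CPM to 395 and 359 CPM (log2 fold change 2.66, standard error 0.32, adjusted *P* = 0.00325). *CBL1* (Bostr.30275s0223, AT4G17615), a calcium sensor, rose from 9.13 and 16.3 CPM to 80.8 and 89.7 CPM (log2 fold change 2.74, standard error 0.42, adjusted *P* = 0.00603). Without EW9 the log2 fold change of *CBL1* was 2.35 and its call was lost. Other steps of these pathways were not called, among them the transcription factor gene *ABF4*, the kinase gene *SOS2* and the catabolic gene *CYP707A4*, for which the groups overlapped. *ZEP*, which acts early in abscisic acid synthesis, had 706 and 549 CPM in control and 431 and 204 CPM in A/HS libraries (log2 fold change −0.98, adjusted *P* = 0.131).

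**Figure D3:**
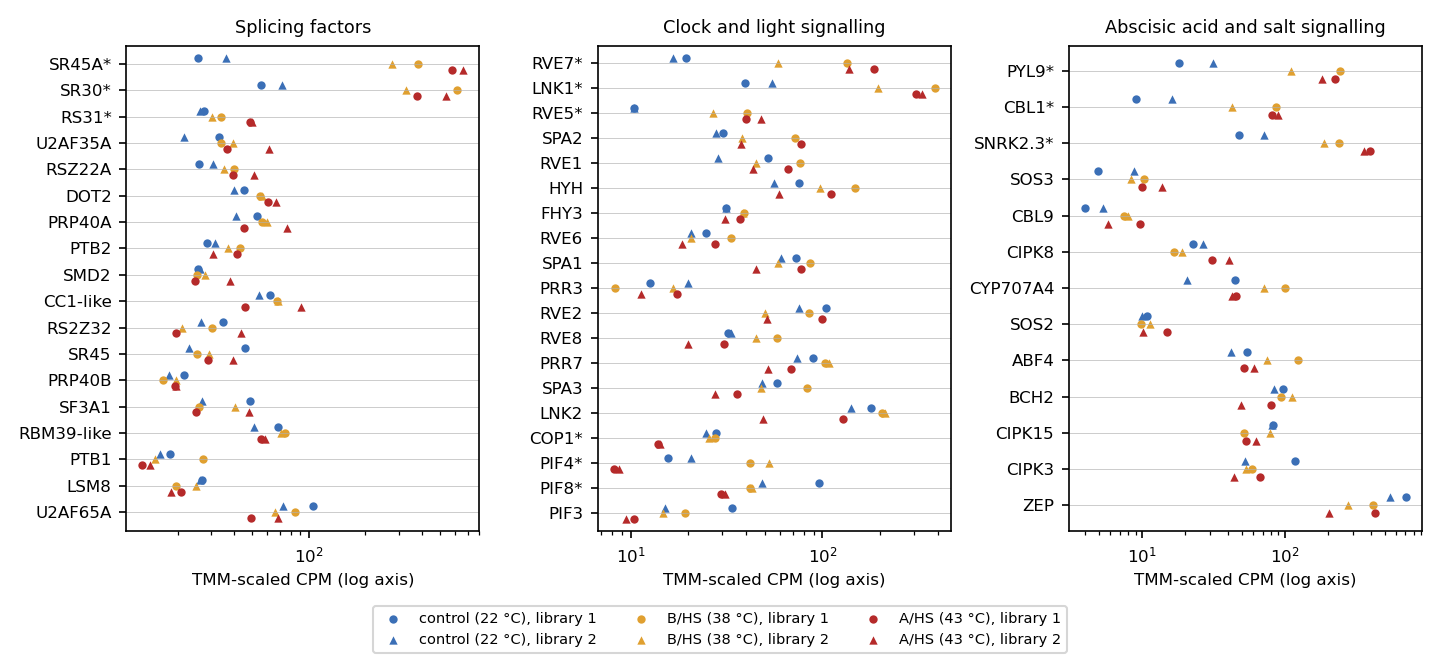
TMM-scaled CPM (log axis) of every tested member of the splicing, clock, light, abscisic acid and salt lists in each of the 6 *B. depauperata* libraries, ordered by log2 fold change of A/HS minus control. Circles and triangles are the 2 libraries of a condition, and an asterisk marks an adjusted *P*-value under 0.05 for A/HS against control. *SR45A* and *SR30* stand apart from the other 16 splicing factors, and *PIF4* is high after B/HS and low after A/HS.

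Among 14 defence and jasmonate genes, 2 were called higher and 1 lower, shares near the 9.77% and 7.49% of the paired genes. The repressor gene *JAZ10* had 5.4 and 4.46 CPM in control and 14 and 11.6 CPM in A/HS libraries (adjusted *P* = 0.0365), the cell death regulator gene *LSD1* 16.1 and 17.5 CPM against 34.7 and 33.4 CPM (adjusted *P* = 0.0489), and *WRKY60* 29.6 and 23.8 CPM against 12.3 and 5.08 CPM (adjusted *P* = 0.0316). None of the 3 calls held in more than 6 of 12 alternatives. *WRKY70* and *WRKY40* had the lowest log2 fold changes of the list, −2.52 and −2.45, but were not called by edgeR (adjusted *P* = 0.0655 and 0.0798). DESeq2 called both, with adjusted *P*-values of 0.00959 and 0.0196. Their control libraries differed widely, with 18.3 and 69.8 CPM for *WRKY70* and 40.1 and 5.16 CPM for *WRKY40*, and the higher of these values was in EW10 for the first and in EW9 for the second.

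Auxin and cytokinin genes gave 2 calls of 9, both lower, against the same 7.49%. *IAA27*, a repressor of auxin signalling, had 38.6 and 40 CPM in control and 13.4 and 15.6 CPM in A/HS libraries (log2 fold change −1.44, standard error 0.29, adjusted *P* = 0.0149), and *ARF4*, an auxin response factor, 47.1 and 55.8 CPM against 24.9 and 20.7 CPM (log2 fold change −1.17, standard error 0.29, adjusted *P* = 0.0283). Of the peroxide scavenging genes, *APX1*, the cytosolic ascorbate peroxidase, rose from 853 and 886 CPM to 2484 and 3254 CPM (log2 fold change 1.72, standard error 0.35, adjusted *P* = 0.0154), while *GSH2*, which makes glutathione, fell from 61.5 and 74.6 CPM to 24.5 and 28.3 CPM (log2 fold change −1.37, standard error 0.26, adjusted *P* = 0.0116). The other 5 scavenging genes were not called, and of the paired genes 9.77% were called higher and 7.49% lower. None of these 4 calls was made without EW9 or without EW10.

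All 8 organelle protease genes had lower values in both A/HS libraries than in both control libraries, against 31.6% of all genes tested, but only *LON2*, a peroxisomal protease, was called, and 7.49% of the paired genes were called lower. It went from 177 and 98.7 CPM to 35.2 and 25.1 CPM and was DE (log2 fold change −2.18, standard error 0.36, adjusted *P* = 0.00757). The log2 fold changes of the other 7 lay between −0.996 (*FTSH11*) and −0.50 (*SPPA*). Without EW9 its call was lost, and without EW13 it was 1 of 3 calls. Of 9 ribosomal protein genes, 7 had both A/HS libraries above both control libraries, against 29.9% of all genes tested. Of these *RPS27* and *RPS25E* were called (log2 fold changes 1.55 and 1.19, adjusted *P* = 0.00943 and 0.0226), neither of them without EW9. The share of paired genes called higher was 9.77%. In the cell cycle and chromatin list only *KRP2*, an inhibitor of cyclin-dependent kinases, was called among 13 tested, from 20.7 and 28.8 CPM to 9.42 and 9.44 CPM (adjusted *P* = 0.0354). That 1 lower call is near the share of paired genes called lower, 7.49%. No call of that list held without EW9, EW10, EW13 or EW14. *AAPT1*, which acts in the synthesis of membrane phospholipids, was the only call among 7 lipid genes (log2 fold change 1.03, adjusted *P* = 0.0444). This call is to be set against the same 9.77%, and held in 5 of 12 alternatives. None of the 4 autophagy genes was called by edgeR or DESeq2, and none reached an unadjusted *P*-value under 0.05 in edgeR's test.

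**Figure D4:**
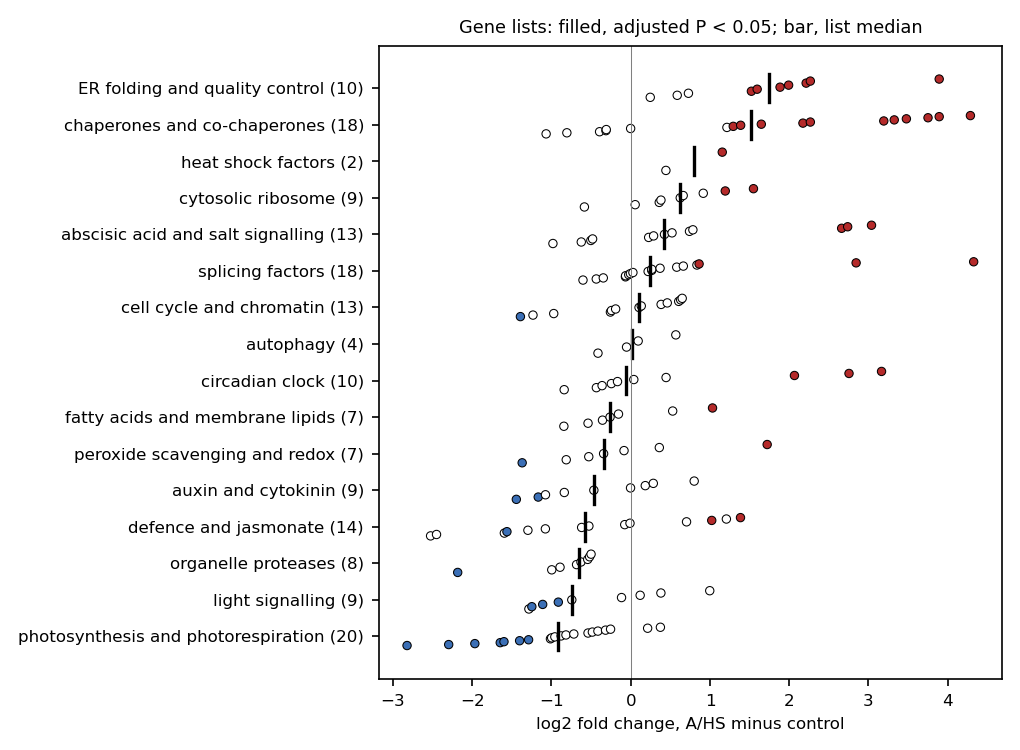
Log2 fold change of A/HS minus control for each tested member of the 16 lists, with the number tested in brackets. Filled points passed the adjusted *P*-value (red higher, blue lower) and the bar is the list median. Medians run from −0.92 for photosynthesis and photorespiration to 1.74 for ER folding.

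Among named genes outside the lists, the largest rises included genes of several families. *AT1G51340* (Bostr.26675s0064), a MATE efflux transporter gene, rose from 20.4 and 35.4 CPM to 347 and 516 CPM (log2 fold change 3.95, standard error 0.44, adjusted *P* = 0.003). *AT4G19645*, which encodes a protein with a lipid-sensing TLC domain, rose from 4.5 and 5.95 CPM to 53.1 and 111 CPM (log2 fold change 3.95, standard error 0.45, adjusted *P* = 0.003). *AT5G59845*, of the gibberellin-regulated family, rose from 0.514 and 1.49 CPM to 9.62 and 28 CPM (log2 fold change 4.12, standard error 0.67, adjusted *P* = 0.00707). *AT4G29905*, of unknown function, rose from 15.4 and 19.3 CPM to 197 and 281 CPM (log2 fold change 3.78, standard error 0.51, adjusted *P* = 0.00425).

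The highest fitted changes were larger with EW14 than without it. *DGR1*, of a family of cell wall proteins, had 1 and 4 counts in EW9 and EW10 and 28 and 126 in EW13 and EW14, and AT4G08395, of unknown function, 11 and 21 and 77 and 289 counts. Their log2 fold changes of 6.41 and 5.06 (adjusted *P* = 0.00926 and 0.00936) became 4.33 and 3.19 without EW14. Without EW9 they were 5.86 and 4.77, and neither gene kept its call.

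The largest falls among named genes outside the lists were spread over metabolism and kinases. *IMS2* (Bostr.10199s0143, AT5G23020), which in *A. thaliana* elongates the side chains of glucosinolate precursors, went from 183 and 371 CPM to 21.1 and 26.9 CPM (log2 fold change −3.53, standard error 0.52, adjusted *P* = 0.00557). AT4G15430 (Bostr.0597s0169), of a family first described as early responsive to dehydration, went from 51.3 and 38.7 CPM to 3.77 and 5.08 CPM (log2 fold change −3.37, standard error 0.33, adjusted *P* = 0.003). The receptor kinase gene AT1G70250 had 45 and 32 counts in EW9 and EW10 but 0 after A/HS, at least 5.22-fold lower against a floor of 3 counts per library (adjusted *P* = 0.0124). This gene lost its call without EW9.

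*STY46*, a protein kinase gene, and *BGAL4*, a beta-galactosidase gene, were much higher in EW9 than in EW10. *STY46* had 100.2 and 14.2 CPM in control and 5.65 and 2.91 CPM in A/HS libraries, and *BGAL4* 342 and 98.5 CPM against 39.1 and 29.8 CPM (log2 fold changes −3.67 and −2.67, adjusted *P* = 0.0259 and 0.0169). Neither was called without EW9 (adjusted *P* = 0.143 and 0.0782) or without EW14 (0.104 and 0.0734), and *STY46* was not called without EW13 either (0.0723). The 4 other genes in this group were the acid phosphatase gene AT2G39920, the transcription factor gene *PTF1*, AT1G50950 and the receptor kinase gene AT1G56140, with log2 fold changes between −2.90 and −2.62. Each lost its call without 1 or both of the control libraries. AT2G39920 and AT1G56140 were not called without EW10 (adjusted *P* = 0.065 and 0.0856), *PTF1* not without EW9 (0.0726) and AT1G50950 not without EW9 or EW10 (0.0579 and 0.0739). The log2 fold change of AT2G39920 was −4.98 without EW13 and −2.22 without EW14.

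A/HS was also compared directly with B/HS, which asks where the 43 °C regime stood apart from 38 °C alone. No gene reached an adjusted *P*-value under 0.05 in edgeR's test, although 2740 genes (15.4%) had an unadjusted *P*-value under 0.05, and DESeq2 called 122 genes DE. Without EW13, 93 genes were DE. The comparisons of A/HS and of B/HS with control use the same control libraries. In B/HS against control 405 genes were DE and higher (2.27%) and 215 DE and lower (1.21%). By adjusted *P*-value alone 1300 genes (7.29%) were called there, of which 864 were higher (4.84%).

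*PIF4* had the lowest *P*-value of the paired genes in the direct comparison. It had 42.1 and 52.6 CPM in B/HS libraries, above control, and 8.16 and 8.72 CPM in A/HS libraries, below control. The difference was −2.49 on the log2 scale (standard error 0.30, unadjusted *P* = 2.65e-05, adjusted *P* = 0.193), so it failed the correction although no library of one condition overlapped the other. *LOG1*, whose family activates cytokinins, followed the same order, with 64 and 54.9 CPM in control, 128 and 100 CPM in B/HS and 39.3 and 21.4 CPM in A/HS libraries (adjusted *P* = 0.193). The FKBP-type isomerase gene AT1G73655 had 142 and 128 CPM in control, 118 and 132 CPM in B/HS and 48.5 and 42.9 CPM in A/HS libraries. AT5G26680, annotated as an exonuclease gene, had 13.6 and 16.7 CPM in control, 3.36 and 3.62 CPM in B/HS and 14 and 11.6 CPM in A/HS libraries. AT4G15430 had 16.8 and 19 CPM in B/HS libraries, between its control and A/HS values. The adjusted *P*-value of the direct comparison was 0.19 for all 5.

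The chaperones were also high in B/HS libraries. *FES1A* had 1493 and 441 CPM there, *HSP60* 1098 and 523 CPM, *ERDJ3A* 689 and 318 CPM and *HSP90.7* 2149 and 1552 CPM. Over the list, B/HS gave a median log2 fold change of 1.36 and A/HS one of 1.52. For the photosynthesis list the medians were −0.49 and −0.92, and for the ER list 0.87 and 1.74. Taken gene by gene, the median difference between A/HS and B/HS was 0.19 for the chaperones, 0.31 for the ER list and −0.55 for the photosynthesis list. *PDIL1-3* had 40.1 and 47.5 CPM in B/HS libraries, in the range of control, and a log2 difference of 1.51 between A/HS and B/HS (unadjusted *P* = 0.000593, adjusted *P* = 0.193).

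The same A/HS contrast in *A. thaliana* was used to test where the change in *B. depauperata* differed. In the *A. thaliana* libraries the 10 most abundant genes took between 60.3% (W3) and 75.5% (W1) of the counts. In *B. depauperata* they took between 24.0% (EW10) and 39.9% (EW14). Of 1643 pairs tested in 1 fit over all 12 libraries, 153 differed (9.31%), 72 with the higher change in *B. depauperata* (4.38%) and 81 with the lower (4.93%). Each change is taken within a species. The number depended on single libraries, with 20 pairs without control library W1, 22 without W2, 32 without A/HS library W5 43 without W6 and 88 and 87 without B/HS library W3 or W4. Without *B. depauperata* control library EW9 it was 52, without EW10 87 and without EW13 233. With scaling factors taken in each species over all of its own genes, 42 pairs had the higher change in *B. depauperata* and 77 the lower.

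The 5 pairs with the lowest *P*-values had fitted changes of opposite sign in 4 cases, and a choice by the difference itself favours such pairs. *RUG1*, an RCC1 family gene, rose in *B. depauperata* from 7.46 and 8.53 CPM to 64.7 and 46.5 CPM and had 5.66 and 5.2 CPM in control and 2.62 and 2.94 CPM in A/HS libraries of *A. thaliana* (difference 3.77, standard error 0.37, adjusted *P* = 0.000117). *ACR9*, an ACT domain gene, rose from 14.5 and 22.9 CPM to 184 and 151 CPM, against 25 and 22.8 CPM and 14 and 18.1 CPM in *A. thaliana* (difference 3.74, standard error 0.39, adjusted *P* = 0.00012). *EMB2813*, the large subunit of DNA primase, had 4.89 and 6.55 CPM in control and 28 and 16 CPM in A/HS libraries of *B. depauperata*, and 3.49 and 4.73 CPM and 1.65 and 1.89 CPM in those of *A. thaliana* (difference 3.18, adjusted *P* = 0.00211). *CAD1*, annotated as a cinnamyl-alcohol dehydrogenase of lignin synthesis, went the other way, from 54.3 and 52.4 to 20.5 and 16 CPM in *B. depauperata* and from 9.25 and 14.6 to 22.9 and 22.3 CPM in *A. thaliana* (difference −2.43, adjusted *P* = 0.00197). *PNSB1* fell in *B. depauperata* and had 24.8 and 26.5 CPM in control and 25.7 and 18.3 CPM in A/HS libraries of *A. thaliana* (difference −2.05, adjusted *P* = 0.00487).

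**Figure D5:**
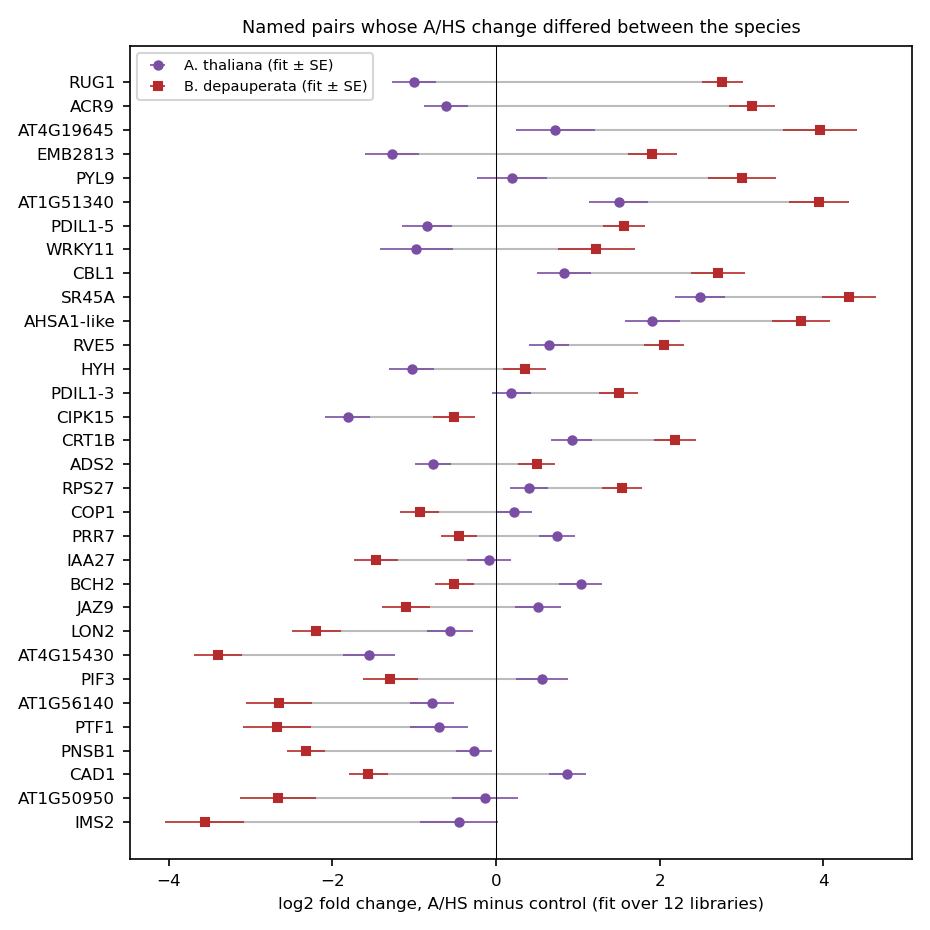
Log2 fold change of A/HS minus control (fit over 12 libraries, bars are 1 standard error) in *A. thaliana* (circles) and *B. depauperata* (squares) for the 32 named pairs whose change differed between the species at an adjusted *P*-value under 0.05 and that had counts in both A/HS libraries. *RUG1* has the largest difference with the higher change in *B. depauperata* (3.77) and *IMS2* the largest with the lower change (−3.11).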

How the data were processed

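The deposited values were whole-number counts of reads per gene, made by the authors from *B. depauperata* reads aligned to *B. stricta* gene models and, for *A. thaliana*, to TAIR 10, with TopHat 1.4.1 named in the submitters' processing notes. The counting program, strand setting and treatment of multiply mapped reads are not given in the sources used here, and reads of a polyploid's gene copies fall on 1 *B. stricta* gene. *B. stricta* positions and sequences were not used here.

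Counts of the 6 *B. depauperata* libraries (2 for each of 3 conditions) were fitted in edgeR 4.0.16 (R 4.3.3) with TMM factors and filterByExpr, and tested by quasi-likelihood with *P*-values adjusted after Benjamini and Hochberg. A standard error is the size of the log2 fold change over the root of F. The 3 conditions share 1 estimate of the spread (biological coefficient of variation 0.283). DE follows the study's thresholds of 4-fold and 0.05. The difference between species was the interaction term over one-to-one pairs in all 12 libraries. CPM is the count scaled to library size with TMM factors, and floors of 3 counts cover counting error only. A two-sided exact permutation test of 2 against 2 libraries cannot go below 0.333, and none was run. The libraries of a group differed by more than sampling noise (chi-square per degree of freedom between 21.4 and 38.4).

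The members and lists were chosen with earlier results of these data known. Named genes are the members of the 16 lists and of the root markers, the 10 highest and 10 lowest DE pairs whose libraries did not overlap, the 2 highest and 2 lowest such genes without a pair at a mean of at least 50 CPM, and the 5 pairs with the lowest *P*-value in the species and in the A/HS against B/HS comparison. Alternatives were DESeq2 1.42.0, RLE factors, other filters, a test against a 2-fold change (glmTreat), thinning to the smallest total, fewer libraries in the fit and each library left out. The scripts were tested on simulated counts.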

Additional observations from a re-analysis of the deposited data

Results flagged for a closer look

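The change after A/HS differed between *B. depauperata* and *A. thaliana* for 153 pairs by edgeR's test of the difference itself (adjusted *P* under 0.05), and the named genes among them are picked out for that reason. Values are log2 differences, *B. depauperata* minus *A. thaliana*.

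The 4 named genes of protein folding that differed had the higher change in *B. depauperata*. Over all pairs tested, 4.38% had the higher change and 4.93% the lower. No other member of the chaperone list (19 members) or the ER list (10 members) passed, and both lists were chosen with earlier results known. The differences were 2.40 for *PDIL1-5*, 1.82 for *AHSA1-like*, 1.31 for *PDIL1-3* and 1.27 for *CRT1B*. Among abscisic acid and salt genes they were 2.81 for *PYL9*, 1.89 for *CBL1* and 1.30 for the kinase gene *CIPK15*, with a log2 fold change of −1.81 in *A. thaliana*. *SR45A* differed by 1.82, *RVE5* by 1.4, *HYH*, a bZIP factor of light signalling, by 1.38, *RPS27* by 1.13, *WRKY11* by 2.20 and the desaturase gene *ADS2* by 1.27. *RUG1* (3.77), *ACR9* (3.74) and *EMB2813* (3.18) have been described, and the TLC domain gene AT4G19645 and the MATE transporter gene AT1G51340 differed by 3.23 and 2.45.

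Of the genes with the lower change in *B. depauperata*, *PNSB1* differed by −2.05 and *BCH2*, which makes xanthophylls, by −1.54. Light and clock genes in this direction were *PIF3* (−1.85), *COP1* (−1.16) and *PRR7* (−1.20). Hormone genes were *IAA27* (−1.38) and *JAZ9* (−1.61), and the peroxisomal protease gene *LON2* differed by −1.64. The remaining differences were −2.43 for *CAD1*, −3.11 for *IMS2*, −1.98 for *PTF1*, −1.85 for AT4G15430, −2.53 for AT1G50950 and −1.87 for AT1G56140. AT1G70250 had a fitted difference of −6.13, which depends on the prior count because both A/HS libraries of *B. depauperata* are at 0. With scaling factors taken in each species over all of its own genes, *CRT1B*, *HYH*, *WRKY11*, *CIPK15*, *RPS27* and *PTF1* no longer passed. Of the 33 named genes, 6 still passed without *A. thaliana* control library W2, 7 without A/HS library W5, 10 without control library W1, 14 without A/HS library W6 and 12 without *B. depauperata* control library EW9. The *B. depauperata* change of *WRKY11* was not called (1.22 in the fit over 12 libraries), and without EW14 its log2 fold change in the fit over 6 was −0.04. The *B. depauperata* changes of *CIPK15*, *HYH*, *ADS2*, *BCH2*, *PRR7*, *PIF3* and *JAZ9* were not called either. Their adjusted *P*-values in edgeR's fit over 6 libraries lay between 0.0673 (*PIF3*) and 0.504 (*HYH*). For these genes a species difference is not a called change in *B. depauperata*.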

How the results depend on the processing

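Adjusted *P*-values of edgeR's quasi-likelihood test underlie the counts below unless DESeq2 is named. No paired analysis was possible because the labels carry no replicate numbers, and those used here follow accession order only. With glmTreat against a 2-fold change, and without the 4-fold threshold, 677 genes passed (174 lower). The 1197 DE genes numbered 1279 with DESeq2, 1199 with RLE factors, 1147 after thinning and 1200 with the 10 most abundant genes left out, an alternative chosen after seeing the data. With all genes of at least 1 count, 2037 genes were lower by adjusted *P* alone. A/HS against B/HS gave 122 DE genes with DESeq2 (89 higher, 33 lower) and 236 with all genes of at least 1 count (171 and 65). Species differences numbered 93 in a fit of the 8 libraries compared (42 lower), and each species' own factors left 42 higher. DESeq2 called 12 photosynthesis genes, 4 defence genes and 2 organelle proteases lower, 1 defence gene higher and no heat shock factor, and RLE factors gave 1 defence gene higher and 0 heat shock factors.

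Leaving out 1 library gave between 500 and 1529 DE genes (318 to 916 higher, 182 to 613 lower), and by adjusted *P* alone between 549 and 2879 (331 to 1620 higher, 218 to 1259 lower). The low end of both ranges was without control library EW9. The high end for DE was without EW13, which shared 883 genes with the 1197. A/HS against B/HS gave 0 to 93 (0 to 88 higher, 0 to 5 lower) and species differences 20 to 233 (10 to 110 higher, 10 to 123 lower). List members called higher numbered 1 to 7 for ER folding, 6 to 11 for chaperones, 0 to 2 for the ribosome, 0 to 1 for defence, lipids and redox, and 0 for heat shock factors. Members called lower numbered 3 to 7 for photosynthesis, 0 to 3 for organelle proteases, 0 to 2 for auxin, light signalling, redox, defence and chaperones, and 0 to 1 for abscisic acid, the cell cycle and the clock. Of the 72 named genes called, 69 were called by DESeq2, 29 without EW9, 48 without EW10, 56 without EW13 and 56 without EW14. No named call changed direction in any alternative. With 2 libraries per condition, a missed call does not show an unchanged gene, and the causes of these changes were not tested.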
